A study of Mus musculus with 3 samples.

Results

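The Bcl2 family is the set of proteins that decides whether the outer mitochondrial membrane of a cell stays closed. Its 10 members described here were chosen by name as regulators of apoptosis: the pro-survival genes Bcl2, Bcl2l1 (Bcl-xL), Mcl1 and Bcl2a1a (A1), the effectors Bax and Bak1, and the BH3-only genes Bbc3 (Puma), Pmaip1 (Noxa), Bid and Bcl2l11 (Bim). Of 36870 gene names on the arrays, 9 of these 10 were found, with 21 probes in all, and 19 of the 21 probes gave a signal well above background on 1 array or more. Bcl2a1a had no probe under its own name.

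The samples were RAW264.7 cells, an established mouse macrophage line, and each condition was hybridised to 1 single-colour oligonucleotide array. One array held macrophages challenged with lipopolysaccharide (LPS, the agonist of Toll-like receptor 4) alone. The other 2 held macrophages exposed to the Lactiplantibacillus plantarum strain LOC1 or LOC3 before the same challenge, for 12 hours by the submitters' design text (the published methods give a longer exposure). RNA was taken 3 hours after LPS in all 3 groups, and an unchallenged group enters only through the deposited ratios of the authors. The labels set the groups apart only by the strain. All come from 1 cell line, and a smaller number of cells cannot be told apart from less RNA per cell.

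Pro-survival members hold the effectors Bax and Bak1 inactive. BH3-only members, which carry only the BH3 motif of the family, bind the pro-survival members or the effectors after stress, and free effectors open the mitochondrial membrane so that cytochrome c reaches Apaf1 and the caspases. In macrophages, nuclear factor kappa B, which Toll-like receptor 4 switches on, is known to drive several pro-survival genes, Bcl2a1 among them.

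The results below turn on 4 genes whose probes lie in coding sequence, and these 60-base probe sequences are shown to make clear what was read. In Bcl2 the capitals mark the codons for Phe-Gly-Gly, and in Bcl2l11 those for the Gly-Asp pair of the BH3 core, both located by translating the probe. Coordinates are those of mouse build mm9 as the array files give them, and each probe is written in the sense of the transcript.
Bcl2 (chr1:108608970-108609029, minus strand): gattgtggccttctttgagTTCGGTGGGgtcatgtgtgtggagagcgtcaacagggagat
Bcl2l1 (chr2:152655185-152655244, minus strand): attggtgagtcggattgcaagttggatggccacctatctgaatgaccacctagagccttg
Bcl2l11 (chr2:127972893-127983988, plus strand): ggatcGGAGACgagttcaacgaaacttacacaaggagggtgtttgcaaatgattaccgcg
Bcl2a1c (chr9:114239422-114239481, plus strand): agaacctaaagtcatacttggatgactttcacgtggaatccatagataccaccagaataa
The span of the Bcl2l11 probe is longer than its 60 bases, so the probe crosses an exon junction, whereas the other 3 lie within single exons.

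The A1 genes need a separate word, because mouse has several near-identical copies. The Bcl2a1c probe above is annotated to Bcl2a1c, and its binding to the other copies was not tested. The probe named Bcl2a1d (chr9:88618165-88618224, minus strand) is annotated in the array files to transcripts of Bcl2a1a, Bcl2a1b and Bcl2a1d together, so its signal is the nearest the arrays come to Bcl2a1a and cannot be divided among the 3. The likeness extends upstream of the genes. The following 60 bases, taken from the RefSeq promoter windows of build GRCm38.p6 and all upstream of the annotated start, differ by at most 1 base from the majority of the 4 copies, with the differing base in capitals.
Bcl2a1a (chr9:88956860-88956919, plus strand): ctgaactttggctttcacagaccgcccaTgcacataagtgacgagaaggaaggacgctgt
Bcl2a1b (chr9:89199169-89199228, plus strand): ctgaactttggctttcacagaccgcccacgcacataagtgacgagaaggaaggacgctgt
Bcl2a1c (chr9:114329965-114330024, plus strand): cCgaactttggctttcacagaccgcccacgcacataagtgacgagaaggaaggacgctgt
Bcl2a1d (chr9:88731851-88731910, minus strand): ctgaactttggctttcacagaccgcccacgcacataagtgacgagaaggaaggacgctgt

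All values below are array intensities or log2 values, and probes differ in how strongly they hybridise, so levels are compared between arrays and never between genes. Each log2 value is relative to the 75th percentile of its array, which lay at intensities of 555 (LPS), 513 (LOC1) and 516 (LOC3). Repeated spots of the same probe gave a technical SD of a log2 difference of 0.06 for probes of bright signal and 0.31 for dim ones. With 1 array per condition no difference has a replicate check, and no test between conditions could be made. Of the macrophage markers looked for, 7 of 8 names were on the arrays and all 7 gave a signal well above background on 1 array or more, with a summed intensity of 361443 to 455594. The summed intensity was 16.9 to 32.2 for epithelial markers and 58.7 to 96.5 for B cell markers. It was 125 to 207 for fibroblast markers and 1217 to 1362 for T cell markers. By the same rule, 1 of 4 epithelial, 2 of 4 B cell, 4 of 4 fibroblast and 3 of 4 T cell markers were detected. The epithelial marker detected, Epcam, passed with LPS only, at an intensity of 20.7 where the lowest passing signal was 16.3. These sums pool different probes and are not levels to compare between lists.

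LPS alone, set against unchallenged macrophages, had the A1 genes far above their unchallenged level and Bcl2 below it. These ratios are the authors' own, listed only for probes past 2-fold and each from 1 array against 1 array. The Bcl2a1c ratio was 4.81 on the log2 scale, or 28.1-fold, and that of the probe shared by Bcl2a1a, Bcl2a1b and Bcl2a1d was 4.73, or 26.6-fold. Both A1 probes were thus higher with LPS by a similar factor. The array files annotate them to different copies, and whether either probe also binds transcripts of the others was not tested.

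Of the 9 members on the arrays, 3 were listed as higher with LPS and 1 as lower, where 9.70% and 8.66% of all gene names were listed in these directions by at least 1 probe. These shares are over all gene names, detected or not, whereas all 9 members had a detected probe. A gene with several probes also had more chances to be listed, so the counts are not set against a like group. Bcl2l11, a BH3-only activator, had listed ratios of 2.02 and 1.46 on 2 of its 4 probes. Bbc3, a BH3-only gene known as a target of p53, had a ratio of 1.48 on its single probe. Bcl2l1 had ratios of 1.04 and 1.30, on 2 of 5 probes, and its 3 other probes, the brightest among them, were not listed. Bcl2 was lower on all 3 of its probes, by 2.25-fold on both detected ones (log2 ratios of -1.17 and -1.17) and by at least 5.59-fold on the remaining one (log2 ratio of -2.48), which stayed near background on all 3 arrays. Mcl1, Bax, Bak1, Pmaip1 and Bid had no listed probe, which says only that no ratio of theirs passed the authors' filter. All 4 listed members thus had smaller ratios than the A1 probes.

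**Figure D1:**
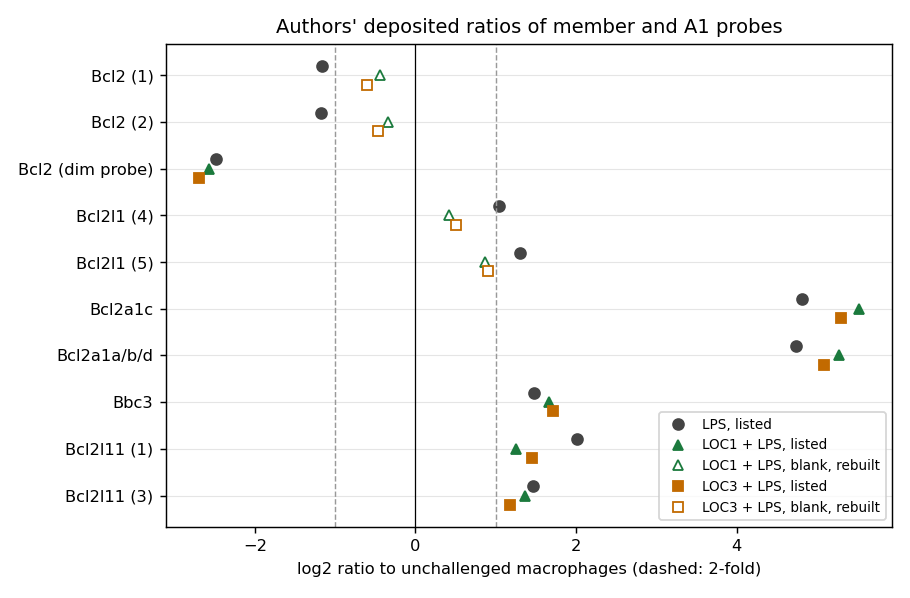
The authors' log2 ratios to unchallenged macrophages (horizontal axis, log2 units, 1 array per condition) of every probe of the members and the A1 copies listed with LPS, with circles for LPS, triangles for LOC1 before LPS and squares for LOC3 before LPS. Filled symbols are listed values and open ones were rebuilt from the array signals where the authors' column was blank. Numbers in brackets order the detected probes of a gene by their signal with LPS. The A1 probes lie between 4.73 and 5.53, and the detected Bcl2 probes lie at -1.17 with LPS alone.

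Against LPS alone, neither strain moved any member past 2-fold, and the members lay in the central range of all genes. With LOC1, 0 of 9 members passed 2-fold in either direction, against 6.30% of 20018 genes compared. With LOC3 it was 0 of 9, against 6.15% of 19789 genes. The members' log2 differences ran from -0.79 to 0.69 with LOC1, where the 5th and 95th percentiles of all genes were -0.90 and 0.73, and from -0.60 to 0.52 with LOC3, where these were -0.83 and 0.76. The median of the members was 0.15 with LOC1, beside 0.00 for all genes, and 0.21 with LOC3, beside 0.03. Regardless of direction, the median size of a member's difference was 0.53 with LOC1 and 0.34 with LOC3, beside 0.25 and 0.23 over all genes. Both comparisons use the same LPS array, so a stray value on that array enters both, and with the opposite sign it enters the ratio of LPS to unchallenged macrophages.

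At 1.5-fold, 1 of 9 members was higher with LOC1 (Bcl2) and 1 was lower (Bcl2l11), beside 7.69% and 11.4% of all genes. With LOC3 at the same limit, 0 members were higher and 1 was lower (Bcl2l11), beside 7.81% and 9.49% of all genes. These shares of members are near the background at this size, and a single gene makes each of them.

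**Figure D2:**
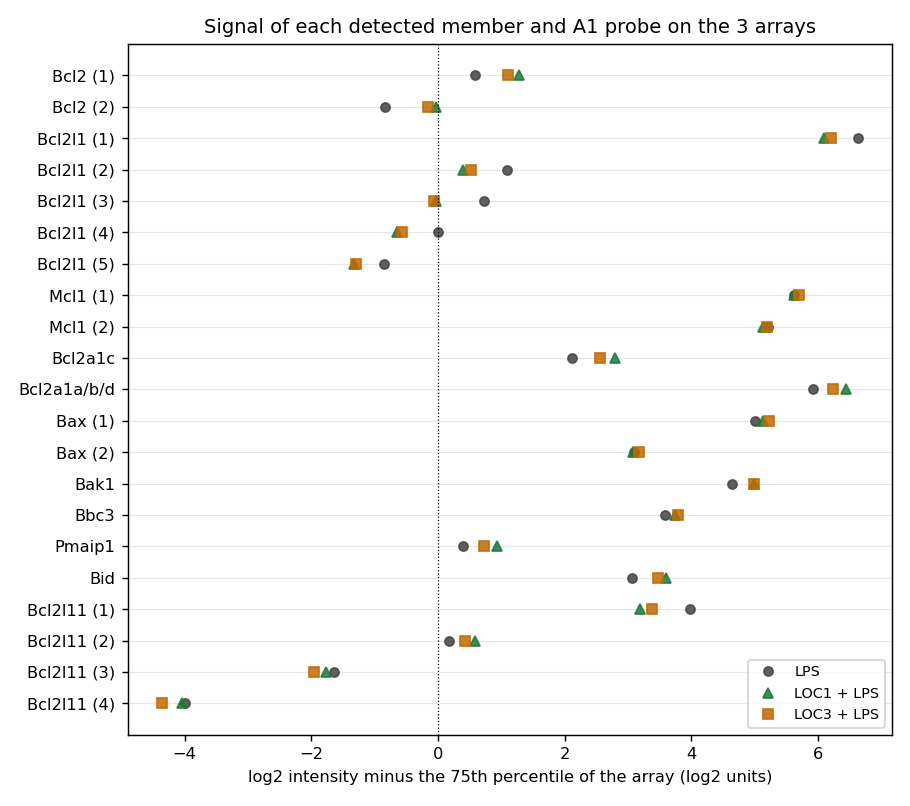
Signal of each detected probe of the members and the A1 copies on the 3 arrays, as log2 intensity minus the array's 75th percentile (horizontal axis, log2 units). Circles are LPS, triangles LOC1 before LPS and squares LOC3 before LPS, with 1 array per condition. The Bcl2 symbols of both strains lie to the right of LPS, those of Bcl2l1 lie to the left, and those of Mcl1 overlap.

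Bcl2, the founding pro-survival member, was higher with both strains than with LPS alone on both of its detected probes. Its brightest probe, which lies in the last part of the transcript (chr1:108434793-108434852), had intensities of 835 (LPS), 1243 (LOC1) and 1115 (LOC3). The coding probe printed above read 312, 502 and 462. The LPS array was thus the lowest of the 3 on both probes. The log2 differences were 0.69 with LOC1 (1.61-fold) and 0.52 with LOC3 (1.43-fold) on the brightest probe and 0.80 (1.74-fold) and 0.67 (1.59-fold) on the coding probe, each beyond the technical SD of bright probes. The ratios to unchallenged macrophages were not listed with either strain for these 2 probes, and when rebuilt from the signals they came to -0.45 and -0.34 with LOC1 and -0.61 and -0.47 with LOC3. On these 2 probes Bcl2 with a strain therefore lay between its level with LPS alone and its unchallenged level. The remaining probe, near background on all 3 arrays, did not. Its listed ratios were -2.48 with LPS, -2.57 with LOC1 and -2.70 with LOC3.

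Bcl2l1, whose product Bcl-xL protects the same membrane, moved the other way, and all 5 of its probes did so. The brightest probe (chr2:152606404-152606463) had intensities of 54853 (LPS), 35061 (LOC1) and 37930 (LOC3). The coding probe printed above read 922, 502 and 496. LPS alone was the highest array on every probe. The log2 differences ranged from -0.76 to -0.47 with LOC1 and from -0.79 to -0.43 with LOC3, and that of the brightest probe was -0.53 (1.45-fold lower) and -0.43 (1.35-fold lower). On the 2 probes that the authors listed as higher with LPS, the rebuilt ratios to unchallenged macrophages were 0.42 and 0.87 with LOC1 and 0.50 and 0.90 with LOC3.

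Mcl1, a short-lived pro-survival protein, was level across the arrays. Its brightest probe (chr3:95467049-95467108) read 27328 with LPS, 25181 with LOC1 and 26749 with LOC3. The log2 difference of -0.01 with LOC1 was well within the technical SD, and that of 0.07 with LOC3 was about as large as it. The second probe gave -0.08 and -0.02. The sign of the Mcl1 difference turned in 1 of 9 settings with each strain, the median scaling with LOC1 and quantile normalization with LOC3, so no direction is given for it.

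The A1 copies were higher still with a strain. Bcl2a1c had intensities of 2399 (LPS), 3566 (LOC1) and 3041 (LOC3), and the probe shared by Bcl2a1a, Bcl2a1b and Bcl2a1d read 33756, 44404 and 39095. On both probes the order of the arrays was LPS, LOC3 and LOC1. The log2 difference from LPS was 0.68 (LOC1) and 0.45 (LOC3) for Bcl2a1c and 0.51 and 0.32 for the shared probe. In the authors' ratios to unchallenged macrophages, Bcl2a1c stood at 5.53 (LOC1) and 5.29 (LOC3), whereas the shared probe stood at 5.28 and 5.09.

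**Figure D3:**
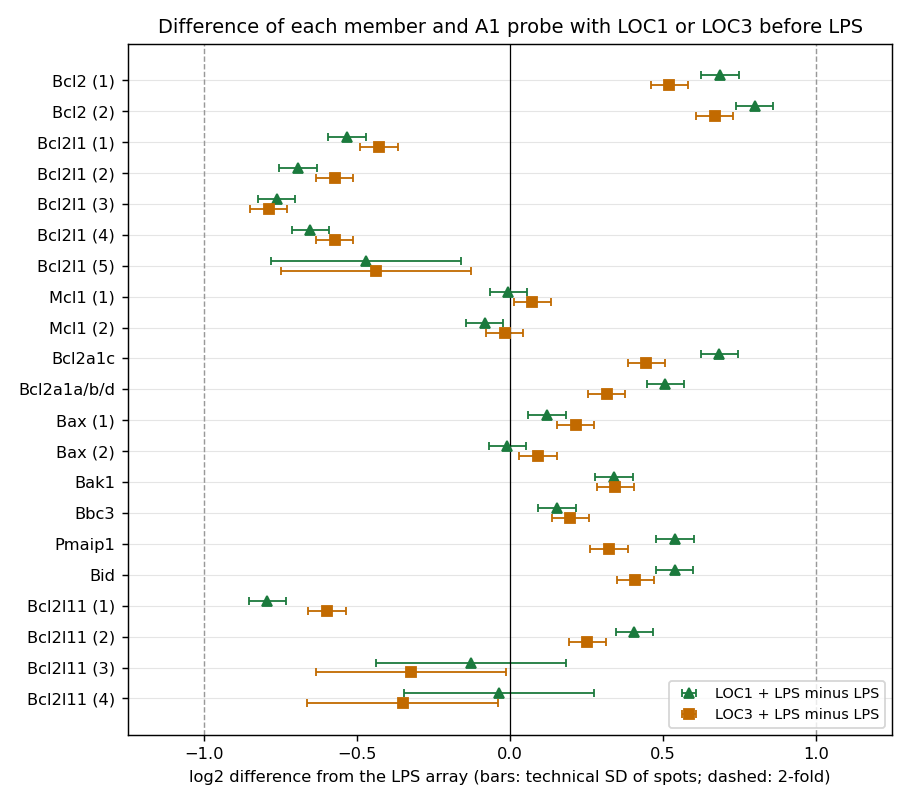
Log2 difference from the LPS array (horizontal axis) of each detected probe of the members and the A1 copies, with triangles for LOC1 and squares for LOC3. Bars are 1 technical SD of repeated spots, 0.06 for bright and 0.31 for dim probes, and carry no biological replicate error, and dashed lines mark 2-fold. No symbol passes a dashed line. The 5 Bcl2l1 probes lie left of 0, and the 4 Bcl2l11 probes lie on both sides of it.

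Of the effectors, Bak1 was higher with both strains and Bax differed little between the arrays. Bak1, read by 1 probe (chr17:27156807-27156866), had intensities of 13889 (LPS), 16257 (LOC1) and 16407 (LOC3), a log2 difference of 0.34 with both strains. Bax read 17925, 18033 and 19356 on its brightest probe (chr7:52717122-52717181), or 0.12 and 0.21, and its second probe gave -0.01 and 0.09. For Bax with LOC1 the 2 probes thus disagreed in sign, and the second was within its technical SD of 0.

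Among the BH3-only members, Bid and Pmaip1 were higher with the strains. Bid, which caspase-8 cleaves to link death receptors to mitochondria, had intensities of 4634 (LPS), 6225 (LOC1) and 5728 (LOC3) on its detected probe (chr6:120843464-120843523), with log2 differences of 0.54 and 0.41. The other Bid probe stayed near background on all 3 arrays. Pmaip1, whose product binds Mcl1 and A1, read 732, 984 and 853 on its single probe, with log2 differences of 0.54 and 0.32. For both genes LPS was the lowest array and LOC1 the highest. Bbc3, whose product binds all pro-survival members, read 6675, 6867 and 7120 (chr7:16903403-16903462), differences of 0.15 and 0.20, so its level with either strain stayed close to that with LPS alone. The authors' ratios of Bbc3 to unchallenged macrophages were 1.67 with LOC1 and 1.71 with LOC3.

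The 4 probes of Bcl2l11, whose product Bim is a BH3-only activator of Bax and Bak1, did not move together. The brightest (chr2:127988051-127988110), which lies 4804 bases into the transcript and downstream of the coding sequence, had intensities of 8761 (LPS), 4675 (LOC1) and 5385 (LOC3). Its log2 differences were -0.79 (1.73-fold lower) and -0.60 (1.51-fold lower). The coding probe printed above is annotated to the same transcripts and went the opposite way, from 625 with LPS to 767 with LOC1 and 693 with LOC3, differences of 0.41 and 0.25. The 2 remaining probes, annotated to other transcripts of the gene, were dim, with intensities of 25.3 to 179, with differences of -0.35 to -0.04 beside a technical SD of 0.31. Of the 4 probes, 3 were lower and 1 higher with each strain. Which probe stands for the gene decides the direction of Bcl2l11, and averaging the detected probes brought its difference to -0.14 with LOC1 and -0.26 with LOC3. In the authors' ratios the brightest probe stood at 2.02 with LPS, 1.26 with LOC1 and 1.46 with LOC3, and the coding probe was not listed with any of them.

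Between LOC1 and LOC3 the members were closer than either strain was to LPS. Differences of the brightest probes ran from -0.20 for Bcl2l11 to 0.22 for Pmaip1 on the log2 scale, with a median of -0.04, and 0 of 9 members passed 2-fold or 1.5-fold. Of all genes compared, 2.63% passed 2-fold and 5.78% passed 1.5-fold. The 2 A1 probes were 0.24 (Bcl2a1c) and 0.19 (the shared probe) higher with LOC1 than with LOC3.

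The wider apoptosis pathway was followed through 48 other genes in 6 groups, of which 47 were on the arrays. With LOC1, 42 could be compared with LPS and 0 passed 2-fold, beside 6.30% of all genes, and at 1.5-fold 3 were higher and 4 lower, beside 7.69% and 11.4%. With LOC3, 43 could be compared, 2 were past 2-fold and higher, beside 6.15% of all genes past 2-fold in either direction, and at 1.5-fold 4 were higher and 1 lower, beside 7.81% and 9.49%. The median difference of these genes was 0.25 with LOC1 and 0.21 with LOC3, beside the near-zero medians of all genes given above. With counts this small, nothing is read from them about the groups.

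The 6 genes of the apoptosome and of mitochondrial release had a median of 0.40 with LOC1 and 0.38 with LOC3. Apaf1, the scaffold that binds cytochrome c, had the largest difference among them, with intensities of 676 (LPS), 962 (LOC1) and 953 (LOC3) on its brightest probe (0.62 and 0.60), although 1 of its 3 probes was lower (-0.55 and -0.52) and the mean of the 3 was 0.16 and 0.18. The 6 apoptotic caspases had a median of 0.33 and 0.39, and none passed 1.5-fold. The largest differences among them were 0.57 for the initiator Casp9 with LOC1 and 0.52 for Casp2 with LOC3, both on the brightest of 2 probes. The other Casp2 probe was lower (-0.48 and -0.37), and averaging both probes gave 0.23 for Casp9 with LOC1 and 0.08 for Casp2 with LOC3. The 5 inhibitors of apoptosis had a median of -0.06 and -0.17. Birc5 (survivin), which also serves in chromosome segregation in dividing cells, was the lowest of them, with intensities of 19035 (LPS), 10202 (LOC1) and 9877 (LOC3) (-0.79 and -0.84), and its second probe was lower by a similar amount (-0.87 and -0.80).

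**Figure D4:**
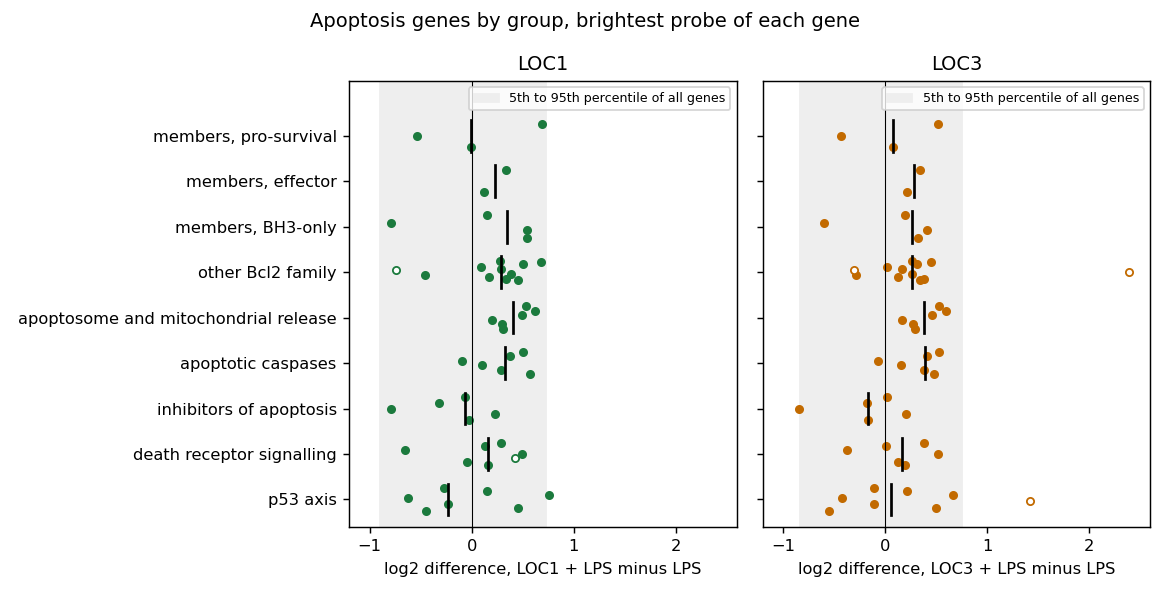
Log2 difference from LPS (horizontal axis) of the brightest probe of each compared gene, by group (vertical axis), with LOC1 on the left and LOC3 on the right. Points are genes, open points are bounds where the probe was well above background on 1 of the 2 arrays, black bars are group medians and the shaded band is the 5th to 95th percentile of all genes. With LOC1 every group median lies between -0.23 and 0.40, and with LOC3 the open points at 2.39 and 1.42 are Bcl2l15 and Perp.

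In the death receptor group, with medians of 0.16 and 0.16, Fas, the receptor of Fas ligand, had intensities of 7305 (LPS), 4298 (LOC1) and 5245 (LOC3) (-0.65 and -0.37). Ripk1, a kinase downstream of these receptors, had the largest difference of the group with LOC3, at 0.52 on the brightest of its 3 probes, while the mean of these probes was 0.14. The p53 group had medians of -0.23 and 0.05. Mdm2, the ubiquitin ligase that degrades p53, was higher with both strains (27223 with LPS, 42478 with LOC1 and 40096 with LOC3, or 0.75 and 0.66), and its second probe gave 0.72 and 0.70. Its partner Mdm4 was lower on the brightest probe (-0.62 and -0.42), but only 3 of its 6 probes were lower, and under another background correction (normexp), where a different probe was the brightest, the differences were 0.35 and 0.36.

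Of the other Bcl2 family genes, with medians of 0.28 and 0.26, Bcl2l15 was at least 5.23-fold higher with LOC3 than with LPS, with intensities of 10.5 (LPS), 12.6 (LOC1) and 79.5 (LOC3), while the other probe of the gene stayed near background on all 3. Perp, a membrane protein induced by p53 in the p53 group, was at least 2.68-fold higher with LOC3, with intensities of 3.79, 7.49 and 40.7. Both probes were well above background with LOC3 alone. Under normexp background correction the difference of Bcl2l15 was 1.08 on the log2 scale and that of Perp 0.59, so that both sizes depend on the correction and Perp was no longer past 2-fold. Of all probes on the arrays, 148 were well above background only with LOC3 and at least 4-fold above both other arrays, against 40 for LPS and 28 for LOC1, and the part of this imbalance in the 2 values was not tested. Bcl2l14, the remaining gene past 1.5-fold, was at least 1.68-fold lower with LOC1 than with LPS, where its intensity was 26.3, and its log2 difference was -0.13 under normexp.

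LPS had pathway genes listed in both directions. In the authors' ratios to unchallenged macrophages 11 of the 47 genes were listed as higher with LPS and 6 as lower, beside 9.70% and 8.66% of all gene names. Again these shares include names with no detected signal and are not those of a like group. Besides the 2 A1 genes, the higher ones included Fas at 5.51 on the log2 scale (45.6-fold), Cflar, the decoy that blocks caspase-8, at up to 4.31 on 3 of 5 probes, Birc3, an inhibitor that ubiquitinates components of tumour necrosis factor signalling, at up to 3.64 on all 4 probes, and its relative Birc2 at 1.65. Mdm4, Mdm2 and Cdkn1a, the cell cycle inhibitor p21, stood at 2.11, 1.94 and 1.81. Apaf1 and the BH3-only gene Bik stood at 1.20 and 1.39. The lower ones included the executioner caspase Casp6 (-1.23), the death receptor adaptor Fadd (-1.27), the mitochondrial nuclease Endog (-1.24), the BH3-only gene Bad (-1.01) and Diablo by 1 of its 4 probes. With LPS that Diablo probe stayed near background, and the unchallenged intensity implied by its ratio was below the detection limit too, so its ratio is not given and it counts as lower only because the authors listed it.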

How the data were processed

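RNA of RAW264.7 macrophages was hybridised to 3 Agilent single-colour arrays, 1 per condition. The authors deposited each array's Feature Extraction intensity values (version 12.0.3.1 per the file headers), already background-subtracted, and a table of log2 ratio values to unchallenged macrophages that lists only probes past their filter. In that table the deposited ratio, or fold, was blank for other probes and was rebuilt from the array signals with the offset that fits the listed ones. GeneSpring and limma in R 3.2.5 are named by the methods and the submitters' processing notes. The array of unchallenged cells was not analysed here.

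Intensities were averaged over spots of a probe, leaving out control spots and the 118 to 135 spots per array flagged as outliers, put on the log2 scale and reduced by each array's 75th percentile. A gene was read by its brightest probe and compared where that probe passed the scanner's well-above-background flag on 1 or both of the arrays. A dim side was raised to the lowest signal well above background, 14.5 to 19.8 in intensity. No spot was saturated, 47.8% to 51.9% of 56605 probes were well above background, and the single array per condition limits the precision. Past 2-fold was called, and no test was made. The script was tested on simulated data. Technical SD came from probes spotted 10 times per array, with 269 bright and 10 to 12 dim probes per array. Probe intervals are in build mm9, for which no gene annotation was used here. Named genes were all members, the A1 copies, list genes past 2-fold, and the largest difference of a list with none. Genes past 1.5-fold, those the authors' table lists, and Casp2, Ripk1, Cdkn1a, Bmf and further probes were named after their values were seen. The members and lists were chosen with earlier results of these data known. Python 3.11.15, pandas 2.3.3, R 4.3.3 and limma 3.58.1 were used. Alternatives were the scaling, background correction, filter, outlier spots, the reading of several probes, the source of values and the threshold.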

Additional observations from a re-analysis of the deposited data

How the results depend on the processing

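With 1 array per condition, no difference can be separated from the variation between cultures. Dim probes carry a technical SD of 0.31, which was estimated only from dim probes still well above background. No member passed 2-fold with either strain under any scaling, background correction, filter or probe rule tried. At 1.5-fold 2 members passed with LOC1 and 1 with LOC3. At 3-fold 2 of the 4 listed members, Bcl2l11 and Bcl2, stayed listed with LPS. Bcl2 stayed only through its probe near background (5.59-fold), since its detected probes were 2.25-fold lower. Scaling to the array median raised the median of all genes to 0.22 with both strains and that of the members to 0.37 with LOC1 and 0.40 with LOC3, a like shift, and turned the genes past 2-fold with LOC1 from 499 higher and 762 lower to 884 and 472, and with LOC3 from 588 and 629 to 862 and 393. Quantile normalization gave a members' median of 0.13 with LOC3, and genes past 2-fold numbered 628 higher against 609 lower (LOC1) and 700 against 507 (LOC3). Normexp left 213 and 208 genes past 2-fold with LOC1, 251 and 158 with LOC3, and 42 and 111 between the strains. No filter gave 1434 and 2405 with LOC1, 1648 and 2131 with LOC3, and 1181 and 1633 between the strains. The deposited ratios cover only 2 members, Bbc3 and Bcl2l11, with medians of -0.29 and -0.16. Among the members, the A1 probes and the list genes past 1.5-fold or largest in their list, Mcl1 (median scaling with LOC1, quantile normalization with LOC3) and Mdm4 (normexp, with both) changed sign, and the others kept theirs. Other named genes were not recomputed. Under normexp the difference with LOC3 was 1.08 for Bcl2l15 and 0.59 for Perp. No paired analysis was possible because each condition had 1 array.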

Other observations

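Several other pathway genes had probes that differed from one another by more than their technical SD, as Bcl2l11 did, and these were picked after their values were seen. Cdkn1a had intensities of 19259 (LPS), 19768 (LOC1) and 20777 (LOC3) on its brightest probe, differences of 0.15 and 0.21 on the log2 scale. Another of its 3 probes read 125, 16.6 and 33.3, or -2.80 and -1.80. Bmf, a BH3-only gene, had differences of 0.17 and 0.12 on the probe that was brightest by its mean log2 signal over the arrays. Its other probe had a difference of -2.31 with LOC1, with intensities of 100.1, 18.7 and 19.5. With LOC3 that probe was not well above background and was at least 4.70-fold lower than with LPS. For Birc3 all 4 probes were lower with both strains, from -0.32 on the brightest to -0.90 with LOC1, and from -0.18 to -1.26 with LOC3.

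Cflar, whose product keeps caspase-8 from being activated, had 5 detected probes, and none was lower with a strain. The probe with the largest ratio to unchallenged macrophages read 4919 with LPS, 6841 with LOC1 and 6748 with LOC3, differences of 0.59 and 0.56, and its brightest probe gave 0.29 and 0.38.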
